A study of Mus musculus with 6 samples.

Results

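The primary (azurophil) granule genes of the neutrophil lineage were followed in RNA-seq libraries of articular cartilage from knockout (KO) and wildtype mice. The set held 8 of the 34709 genes in the deposited table: Mpo, Elane, Prtn3, Ctsg, Prss57, Ctsc, Srgn and Ms4a3. They were chosen by name, as genes transcribed while the first granules of the neutrophil are filled, and each name matched 1 row of the table. The study compared 3 libraries labelled KO with 3 labelled wildtype. Both groups were aged male mice, and the KO carried a deletion of 1 gene. The paper reports littermates for its age-related model of wildtype and KO mice, without naming these libraries. Tissue was labelled as articular cartilage, and no treatment or time point separated the groups.

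Azurophil granules are made in the bone marrow at the promyelocyte stage, before the secondary and tertiary granules. Myeloperoxidase and a small family of serine proteases are stored in them, bound to the proteoglycan serglycin, and the proteases are switched on by cathepsin C, which trims their amino terminus. Transcription of the peroxidase and the serine proteases is shut down as the cell matures, so that a circulating neutrophil carries these proteins but little of their mRNA. In bone marrow this mRNA is therefore known as a mark of early neutrophil precursors, and articular cartilage itself holds no blood vessels or marrow.

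All 8 genes were higher on average in KO than in wildtype cartilage. None passed an adjusted p of 0.05 in edgeR's quasi-likelihood test of 2 KO against 3 wildtype samples, in which KO replicates 2 and 3, which were almost alike, were averaged into 1 sample. The log2 differences ran from 0.41 (Srgn) to 1.15 (Prtn3), with a median of 0.85 against -0.02 over the 15373 genes tested. In 7 of the 8 genes every KO library lay above every wildtype library, Ctsc being the exception. With KO replicates 2 and 3 averaged first, every KO sample lay above every wildtype sample in 12.5% of all tested genes. The share with the 6 libraries kept apart is not given here. KO replicates 2 and 3 were the highest libraries for every member, and KO replicate 1 lay between them and the wildtype for all but Ctsc.

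The libraries were first compared with each other. They held from 52268311 to 63331135 counts. Taken as a variance, the difference between KO replicates 2 and 3 was 5.77 times that of Poisson sampling. It was 23.7 to 85.4 times for the other 14 pairs, and KO replicates 2 and 3 were therefore counted as 1 sample. On the first principal component (45.1% of the variance) KO replicates 2 and 3 stood at -50.5 and -49.3, while the library labelled KO replicate 1 stood at 23.1, next to the wildtype libraries at 25.1 to 26.5. The level of the targeted gene in that library also went against its label, so the label may be wrong, and every KO mean and the 5-sample fit take it as labelled. Each member is therefore given with and without the library labelled KO replicate 1. Without it the KO arm is 1 merged sample, the spread comes from the wildtype libraries alone, and that sample is assumed to vary as they do. Where nothing in the labels says that libraries came from separate animals, p-values measure only the spread between these samples, which may be technical. As the libraries are bulk RNA, fewer cells of a type and less RNA per cell cannot be told apart.

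The tissue was checked against its defining markers. The cartilage collagen Col2a1 lay at 12.4 to 21.3 FPKM (sequenced fragments per unit of transcript length and of library depth, so that genes can be compared) and aggrecan (Acan) at 13.2 to 22.8. Matrilin-3 (Matn3) did not exceed 0.202 FPKM, was listed at 0 in 3 of the 6 libraries, and Col9a1 did not exceed 0.460 FPKM. Elane, at 338 to 812 FPKM, thus exceeded Col2a1 and Acan in every library. Prg4, lubricin of the joint surface, was well detected at 402 to 1034 FPKM, the highest value being that of KO replicate 1. Chad lay at 70.3 to 230 FPKM and Comp at 41.0 to 109 FPKM, again highest in KO replicate 1. The other listed chondrocyte genes, Hapln1, Sox9 and Cnmd, did not exceed 14.3 FPKM. The 8 members together took 0.245% to 0.315% of all counts in wildtype. The share was 0.383% for KO replicate 1, 0.586% for replicate 2 and 0.582% for replicate 3.

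**Figure D1:**
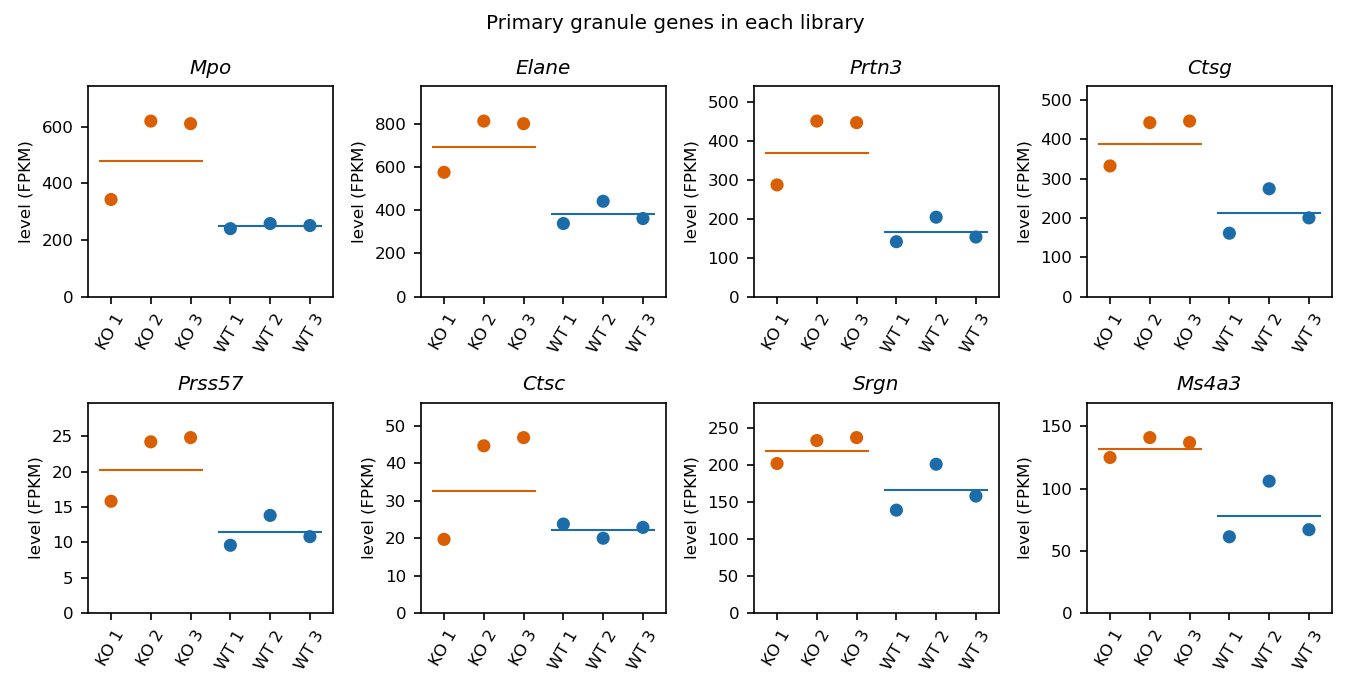
Level of each primary granule gene (FPKM, linear axis from 0) in the 3 KO (orange) and 3 wildtype (WT, blue) libraries. Points are libraries and lines are group means, with KO replicates 2 and 3 averaged first. In 7 panels all KO points lie above all wildtype points, and in Ctsc KO replicate 1, at 19.7 FPKM, lies just below the wildtype libraries at 20.0 to 23.8.

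Mpo encodes myeloperoxidase, which makes hypochlorous acid from hydrogen peroxide and chloride. It lies on the plus strand at chr11:87793581-87804413 (GRCm38, ENSMUSG00000009350). Its level was 343, 620 and 611 FPKM in KO replicates 1, 2 and 3 and 240, 258 and 251 FPKM in wildtype replicates 1, 2 and 3. The groups did not overlap, and the wildtype libraries were much closer to each other than the KO libraries were. The KO mean was 479 ± 193 FPKM (SD, n = 2), against a wildtype mean of 249 ± 9.04 FPKM (SD, n = 3). The log2 difference was 0.95 with a standard error of 0.260, and Mpo did not pass the test (edgeR, adjusted p = 0.200). KO replicate 1 alone gave a log2 difference of 0.54, and the merged KO replicates 2 and 3 alone gave 1.27 (edgeR, adjusted p = 0.0434). The latter p rests on the spread of the wildtype libraries, which is small for Mpo, against 1 merged KO sample.

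Elane, Prtn3, Ctsg and Prss57 encode the serine proteases of the granule: neutrophil elastase, proteinase 3, cathepsin G and the protease NSP4. Elane (plus strand, chr10:79886247-79888215, ENSMUSG00000020125) was the highest of the members, at 575, 812 and 800 FPKM in the KO libraries and 338, 441 and 361 FPKM in the wildtype libraries. Group means were 690 ± 163 FPKM (SD, n = 2) and 380 ± 54.4 FPKM (SD, n = 3). All 3 KO libraries were above the highest wildtype library, wildtype replicate 2. The log2 difference was 0.87 with a standard error of 0.211 (edgeR, adjusted p = 0.175), and 1.04 without KO replicate 1 (edgeR, adjusted p = 0.0644).

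Prtn3 (plus strand, chr10:79874476-79883174, ENSMUSG00000057729) had the largest difference of the 8 genes. Its level was 287, 451 and 447 FPKM in KO and 141, 204 and 153 FPKM in wildtype, with means of 368 ± 115 FPKM (SD, n = 2) and 166 ± 33.7 FPKM (SD, n = 3). The lowest KO library, replicate 1, exceeded the highest wildtype library. The log2 difference was 1.15 with a standard error of 0.249 (edgeR, adjusted p = 0.166), 0.86 with KO replicate 1 alone and 1.39 without it (edgeR, adjusted p = 0.0510). The ratio of its level to that of Elane was also higher in each KO library, at 49.9% to 55.9% against 41.6% to 46.3% in wildtype.

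Ctsg (minus strand, chr14:56099881-56102574, ENSMUSG00000040314) was found at 332, 442 and 446 FPKM in KO and at 161, 274 and 200 FPKM in wildtype. Means were 388 ± 79.6 FPKM (SD, n = 2) and 211 ± 57.3 FPKM (SD, n = 3). Here too the groups did not overlap, although wildtype replicate 2 came close to KO replicate 1. The log2 difference was 0.88 with a standard error of 0.256 (edgeR, adjusted p = 0.216). With KO replicate 1 alone it was 0.72, and without that library 1.03 (edgeR, adjusted p = 0.124).

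Prss57 (minus strand, chr10:79781474-79790961, ENSMUSG00000020323) was the lowest member. Its level was 15.8, 24.2 and 24.8 FPKM in KO and 9.58, 13.8 and 10.8 FPKM in wildtype, with means of 20.2 ± 6.14 FPKM (SD, n = 2) and 11.4 ± 2.14 FPKM (SD, n = 3). Its order of libraries was nearly that of Elane at a much lower level: it lay at 2.75% to 3.12% of the Elane level in all 6 libraries. The log2 difference was 0.83 with a standard error of 0.227 (edgeR, adjusted p = 0.200). Leaving out KO replicate 1 gave 1.06 (edgeR, adjusted p = 0.0722), and KO replicate 1 alone gave 0.55.

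Ctsc encodes cathepsin C, the dipeptidyl peptidase that activates these proteases and also those of mast cells and cytotoxic lymphocytes. It lies on the plus strand at chr7:88278085-88310888 (ENSMUSG00000030560). Its level was 19.7, 44.7 and 46.9 FPKM in KO and 23.8, 20.0 and 22.9 FPKM in wildtype, so that KO replicate 1 was the lowest library of all and KO replicates 2 and 3 the highest. Means were 32.8 ± 18.5 FPKM (SD, n = 2) and 22.2 ± 1.99 FPKM (SD, n = 3). The log2 difference of 0.56 (standard error 0.289; edgeR, adjusted p = 0.469) rested on KO replicates 2 and 3. Without KO replicate 1 it was 1.01 (edgeR, adjusted p = 0.0358), and with KO replicate 1 alone it was -0.09. Each of these fits has a single KO sample, and only the wildtype libraries supply the spread.

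Srgn encodes serglycin, the proteoglycan core on which the granule cargo is packed, and is also made by other blood cells and by endothelium. It lies on the minus strand at chr10:62493833-62527451 (ENSMUSG00000020077). Its level was 202, 233 and 237 FPKM in KO and 139, 201 and 158 FPKM in wildtype, where replicate 2 reached almost the level of KO replicate 1. Means were 218 ± 23.3 FPKM (SD, n = 2) and 166 ± 32.0 FPKM (SD, n = 3). Its log2 difference, 0.41 with a standard error of 0.212, was the smallest of the set (edgeR, adjusted p = 0.474), and leaving out KO replicate 1 gave 0.46. Relative to Elane its level was lower in each KO library, at 28.7% to 35.1% against 41.0% to 45.6% in wildtype.

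Ms4a3 encodes a small membrane protein of granulocyte and monocyte precursors. It lies on the minus strand at chr19:11629496-11640834 (ENSMUSG00000024681). Its level was 125, 141 and 137 FPKM in KO and 61.3, 106 and 67.0 FPKM in wildtype. The 3 KO libraries were close together for this gene, whereas wildtype replicate 2 stood apart from the other wildtype libraries. Means were 132 ± 9.88 FPKM (SD, n = 2) and 78.2 ± 24.5 FPKM (SD, n = 3). The log2 difference was 0.77 with a standard error of 0.260 (edgeR, adjusted p = 0.265), and it was 0.75 with KO replicate 1 alone and 0.79 without it.

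**Figure D2:**
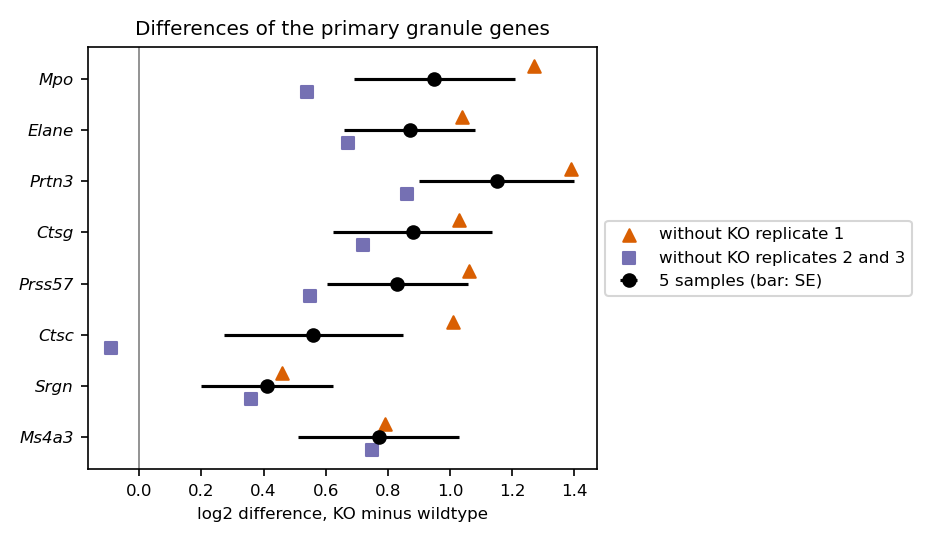
Log2 difference (KO minus wildtype, horizontal axis) of each primary granule gene. Black points with bars are the 5-sample fit and its standard error, triangles leave out KO replicate 1 and squares leave out KO replicates 2 and 3, and Ctsc moves most, from 1.01 to -0.09.

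Counts of calls depended on how the libraries were treated. In the 5-sample fit 0 of the 8 members were called at an adjusted p under 0.05, as were 0 (0%) of all 15373 genes. At an unadjusted p under 0.05, 6 of the 8 were higher in KO, against 7.63% of all tested genes. Ctsc and Srgn were the remaining members. With the 6 libraries fitted as labelled, Elane (log2 difference 0.93; edgeR, adjusted p = 0.0409) and Prtn3 (1.24; edgeR, adjusted p = 0.0367) were called higher, against 2.46% of tested genes called higher and 1.25% called lower. Mpo (edgeR, adjusted p = 0.0504), Prss57 (0.0521) and Ctsg (0.0615) lay just beyond the threshold. That fit counts KO replicates 2 and 3 as independent. With the replicate number as a block it called 0 members and 0 of all 15373 genes.

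Without KO replicate 1, the 2 members called were Mpo and Ctsc, against 1.70% of genes called higher. That fit has 1 merged KO sample with no spread of its own, and its calls have no replicate check within KO. DESeq2 on the 5 samples called 5 members higher, namely Mpo, Elane, Prtn3, Ctsg and Prss57 (DESeq2, adjusted p from 0.000746 for Prtn3 to 0.0286 for Prss57), against 3.44% of genes. Limma on log2(FPKM + 1) called 0 members and 0 of all tested genes. Ranked among all tested genes, the log2 differences of Mpo and the 4 proteases lay between the percentiles 97.5 and 99.0, that of Ms4a3 at 96.8, Ctsc at 93.4 and Srgn at 88.7.

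The members' shares of the set differed in how much they varied between libraries. Elane contributed 29.07% to 30.36% of the 8 genes' summed FPKM, Mpo 16.97% to 22.41%, Ctsg 14.48% to 18.03% and Prtn3 12.52% to 16.29%. Srgn contributed 8.41% to 13.26%, Ms4a3 4.99% to 7.0%, Ctsc 1.04% to 2.14% and Prss57 0.83% to 0.91%. The share of Prtn3 was higher in each KO library than in any wildtype library and that of Srgn lower, and the share of Ctsc varied widely within both groups. Elane was the highest in every library, whereas the order of Mpo, Ctsg and Prtn3 changed between libraries. Seen as profiles over the 6 libraries, Prss57 and Elane were closest to the mean of Mpo and the 4 proteases, at root mean square distances of 0.056 and 0.062 on the log2 scale. Ms4a3 (0.212), Srgn (0.313) and Ctsc (0.349) were farthest. The proteases and Mpo form part of that mean, so their distances are a description.

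**Figure D3:**
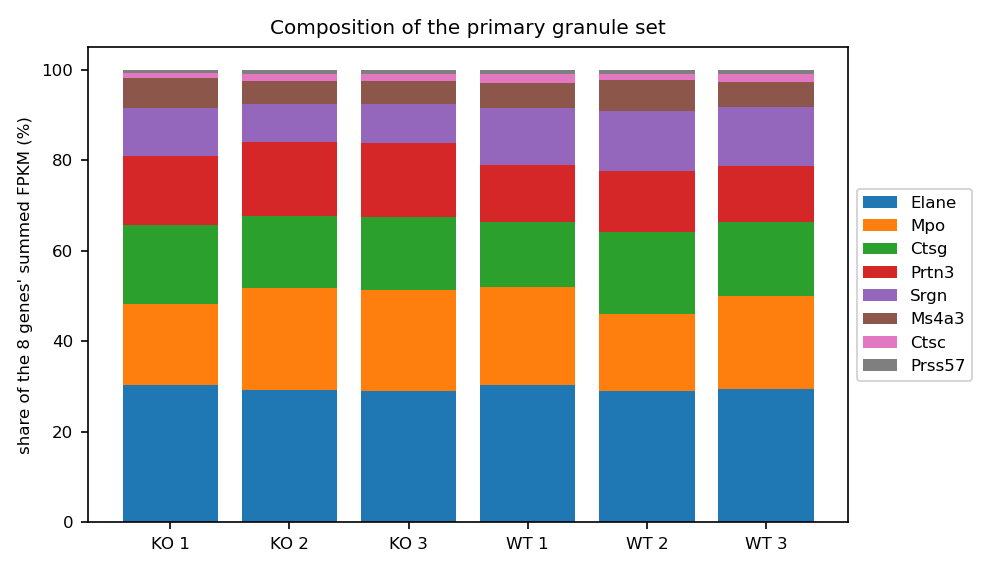
Share of each gene in the summed FPKM of the 8 primary granule genes (%, stacked bars) in the 3 KO and 3 wildtype (WT) libraries. Elane takes 29.07% to 30.36% in every bar, while Srgn takes a smaller share in the KO bars than in the wildtype bars.

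The proximal promoters of 7 members, read from RefSeq (GRCm38.p6, 250 bases before to 50 bases after the start), were searched on both strands for the core letters of 4 myeloid factors. Prss57 had no entry, and Srgn had a promoter at each of 2 starts, giving 8 promoters. GAGGAA, the core bound by PU.1 (Spi1), was present in 6 of 8, all but the 2 of Srgn, against 28.3% of the 32851 promoters in the table. AACNG (MYB) was present in 7 of 8 against 80.3%, TGTGGT (RUNX) in 2 of 8 against 16.8%, and TTGCNNAA (C/EBP) in 1 of 8, that of Ms4a3, against 10.8%. Such a match is a description of letters and not of binding, and none of the 8 GAGGAA matches overlapped a match of another motif. The stretches outside annotated exons are printed for Mpo and the 3 most abundant proteases, the members with the highest levels, 5′ to 3′ on the gene's strand with GAGGAA in capitals. They lie at chr11:87793534-87793580 (plus strand) for Mpo, chr10:79886062-79886246 (plus) for Elane, chr10:79879417-79879613 (plus) for Prtn3 and chr14:56102575-56102824 (minus) for Ctsg.
Mpo: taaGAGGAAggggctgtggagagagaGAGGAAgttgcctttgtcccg
Elane: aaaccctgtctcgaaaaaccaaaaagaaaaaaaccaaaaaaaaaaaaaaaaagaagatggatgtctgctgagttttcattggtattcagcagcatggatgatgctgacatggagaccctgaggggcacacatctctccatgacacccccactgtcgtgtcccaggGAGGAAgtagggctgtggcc
Prtn3: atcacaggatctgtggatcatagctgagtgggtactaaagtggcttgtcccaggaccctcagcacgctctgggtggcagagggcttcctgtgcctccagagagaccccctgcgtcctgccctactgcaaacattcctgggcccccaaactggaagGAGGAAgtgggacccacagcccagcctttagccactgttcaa
Ctsg: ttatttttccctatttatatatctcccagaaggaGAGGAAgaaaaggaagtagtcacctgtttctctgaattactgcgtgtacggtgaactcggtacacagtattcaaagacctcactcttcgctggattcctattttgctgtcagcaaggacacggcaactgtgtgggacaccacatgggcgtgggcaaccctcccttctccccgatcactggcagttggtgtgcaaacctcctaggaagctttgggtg
Counted from the start, the match began at base -85 in Elane, -95 in Prtn3 and -216 in Ctsg, and at -247 and -224 in Mpo. In Ctsc it was found on the other strand at -196 and -149, and in Ms4a3 at base 36 after the start. All these positions are counted from the RefSeq start. That start lies downstream of the gene start in the deposited table by 5.19 kb for Prtn3, 0.203 kb for Mpo and 0.0650 kb for Elane.

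Of the factors that drive this programme, 10 genes listed as myeloid transcription factors and progenitor receptors were tested. In the 5-sample fit 0 were called, 9 were higher in KO and the median log2 difference was 0.21. Spi1, which encodes PU.1, lay at 71.8, 89.1 and 90.2 FPKM in KO and 44.6, 51.5 and 50.7 FPKM in wildtype. Cebpe, the factor of the later granules, lay at 86.9, 87.8 and 82.2 FPKM in KO and 42.8, 57.8 and 46.5 FPKM in wildtype. Gfi1, a repressor needed for neutrophil development, lay at 15.8, 18.3 and 17.5 FPKM in KO and 9.78, 11.6 and 9.42 FPKM in wildtype. For these 3 genes every KO library lay above every wildtype library. With KO replicates 2 and 3 averaged, 12.5% of all tested genes had that pattern. Spi1, Cebpe and Gfi1 were the 3 called higher with the 6 libraries as labelled (edgeR, adjusted p = 0.0358, 0.0379 and 0.0358), against 2.46% of all tested genes. Cebpa, Myb and Runx1 had log2 differences of 0.05, 0.05 and -0.01. Without KO replicate 1 the median of the list was 0.34 and 0 of its genes were called.

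Protease inhibitors formed the next list. Serpinb1a, the cytosolic inhibitor of elastase, proteinase 3 and cathepsin G, lay at 202, 232 and 229 FPKM in KO and 112, 153 and 119 FPKM in wildtype. Slpi, a secreted inhibitor of elastase and cathepsin G, lay at 136, 145 and 144 FPKM in KO and 80.6, 103 and 87.7 FPKM in wildtype. Both had every KO library above every wildtype library, a pattern that 12.5% of all tested genes had with KO replicates 2 and 3 averaged. Neither was called in 5 samples, and both were with the 6 libraries (Serpinb1a, log2 difference 0.78; Slpi, 0.64; edgeR, adjusted p = 0.0450 and 0.0422), against 2.46% of all tested genes called higher. Cst7, cystatin F, which inhibits cathepsin C, lay at 38.2, 50.4 and 55.0 FPKM in KO and 31.6, 32.0 and 27.0 FPKM in wildtype (log2 difference 0.60; edgeR, adjusted p = 0.200). Cst3, cystatin C of most tissues, had a log2 difference of 0.15, which was 0.64 with KO replicate 1 alone and -0.58 without it. Over the 6 tested inhibitors 4 were higher in KO, with a median of 0.37 (0.21 and 0 called without KO replicate 1).

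The 7 genes of granule sorting and exocytosis had a median log2 difference of 0.41, and 0 were called. All fitted differences were above 0, that of Vamp8 by only 0.01. Rab27a, a small GTPase of granule release, lay at 38.4, 54.8 and 53.7 FPKM in KO and 26.1, 29.6 and 27.1 FPKM in wildtype. Stxbp2, a partner of the fusion machinery, lay at 41.4, 53.4 and 55.3 FPKM against 31.7, 33.9 and 34.5 FPKM. Each of the pair was called with the 6 libraries as labelled (Rab27a, log2 difference 0.82; Stxbp2, 0.58; edgeR, adjusted p = 0.0358 and 0.0436), against 2.46% of all tested genes called higher. Vamp8, the most abundant of the list, overlapped between groups at 89.1, 62.0 and 63.8 FPKM in KO and 65.1, 90.4 and 74.5 FPKM in wildtype, and its log2 difference was -0.09 with the 6 libraries and -0.33 without KO replicate 1.

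The other proteins of azurophil and lysosome-type granules differed less. Their median log2 difference was 0.22 over 8 tested genes, of which 7 were higher in KO and 0 called. Lyz2, lysozyme, which is also made by macrophages, lay at 7253, 5233 and 5272 FPKM in KO and 3031, 5031 and 3735 FPKM in wildtype (log2 difference 0.69; edgeR, adjusted p = 0.532). Its order in KO was the reverse of that of Mpo, with replicate 1 the highest. Galns, a lysosomal sulfatase, lay at 22.1, 26.4 and 26.0 FPKM in KO and 14.6, 15.3 and 14.2 FPKM in wildtype. With the 6 libraries it was the 1 gene of the list called, at a log2 difference of 0.75 (edgeR, adjusted p = 0.0315). Of all tested genes 2.46% were called higher in that fit. Hexa and Cd63, both common to lysosomes of many cells, had log2 differences of 0.04 and 0.12. Bpi was read at 0.0512 FPKM in wildtype replicate 1, was listed at 0 in the other 5 libraries, and was not tested.

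The proteases of other leukocytes that cathepsin C activates were listed apart. Of 9 listed, 5 were tested, 2 were higher in KO and the median log2 difference was -0.16 (-0.74 without KO replicate 1). Mcpt8, of basophils, lay at 53.6, 52.9 and 56.4 FPKM in KO and 98.8, 51.1 and 35.1 FPKM in wildtype. Gzma and Gzmk, granzymes of lymphocytes, had log2 differences of -0.76 and -1.23 (edgeR, adjusted p = 0.349 and 0.249). None of the 5 was called in the 5-sample fit, with the 6 libraries or without KO replicate 1.

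Genes of the later neutrophil stages lay close to the primary granule genes in their differences. The 14 secondary and tertiary granule genes had a median log2 difference of 0.87, with 0 called in 5 samples. All fitted differences were above 0, but that of Olfm4 was only 0.02 and turned to -0.03 with the 6 libraries and -0.16 without KO replicate 1. Ltf, lactoferrin, lay at 1090, 1529 and 1514 FPKM in KO and 668, 666 and 664 FPKM in wildtype. Ngp, a neutrophil granule protein, lay at 7546, 7464 and 7513 FPKM in KO and 3803, 4997 and 3881 FPKM in wildtype. Camp, cathelicidin, overlapped between groups at 6175, 3807 and 3863 FPKM in KO and 2369, 4365 and 2849 FPKM in wildtype. With the 6 libraries 6 of the 14 were called higher, against 2.46% of all tested genes. Among them were Cd177 (log2 difference 1.12; edgeR, adjusted p = 0.0363) and Mmp8 (1.05; edgeR, adjusted p = 0.0369). The 8 mature neutrophil genes, such as S100a8, S100a9 and Csf3r, were all higher in KO with a median of 0.82. Of these 0 were called in 5 samples and 5 with the 6 libraries, against the same 2.46% of all tested genes. Without KO replicate 1 the median was 0.88 for the secondary and tertiary list and 0.94 for the mature list. That fit has 1 merged KO sample and rests on wildtype spread.

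Set against these later stages, the share of the primary granule genes overlapped between the groups. The summed FPKM of Mpo and the 4 proteases was 7.08%, 11.3% and 11.1% of that of the secondary and tertiary granule genes in KO (replicates in order), and 8.16%, 7.78% and 8.25% of it in wildtype. Relative to the mature neutrophil genes it was 3.47%, 6.79% and 6.52% in KO and 4.83%, 3.78% and 4.56% in wildtype. Nearly all of that denominator is S100a8 and S100a9, relative to which alone it was 3.52%, 6.93% and 6.65% in KO. On both scales KO replicates 2 and 3 were the highest libraries and the library labelled KO replicate 1 the lowest. KO replicate 1 also had the highest summed FPKM of the mature neutrophil genes, 44694, against 34620 and 35732 in the other KO libraries and 18394 to 31461 in wildtype, a sum that again is mostly S100a8 and S100a9. Other genes of the list had the opposite order within KO, such as Cxcr2 (59.5, 110 and 118 FPKM) and Csf3r (117, 188 and 188 FPKM).

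**Figure D4:**
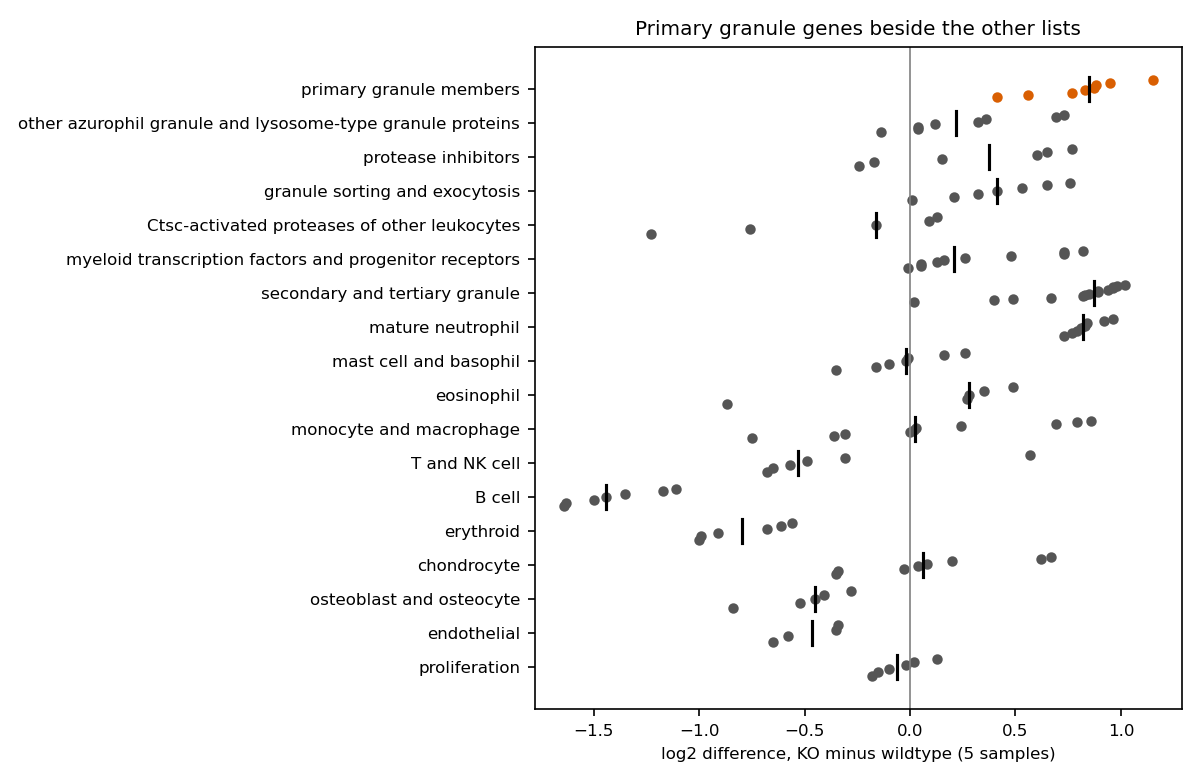
Log2 difference (KO minus wildtype, 5 samples, horizontal axis) of each tested gene of the primary granule set (orange) and of the other lists (grey), with the median of each list as a black bar. The primary granule median of 0.85 lies beside those of the secondary and tertiary granule (0.87) and mature neutrophil (0.82) lists, and the B cell list has the lowest at -1.44.

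Levels of other cell types' markers also differed between the groups, and their part in the differences of the 8 genes was not tested. All 7 B cell genes were lower in KO (median log2 difference -1.44), with a summed FPKM of 82.0 to 132 in KO and 264 to 293 in wildtype. With the 6 libraries 6 of them were called lower, against 1.25% of all tested genes. All 6 erythroid genes were lower as well (median -0.80, and -1.22 without KO replicate 1), their summed FPKM being 35633, 14705 and 14565 in KO and 41181, 48101 and 64896 in wildtype. The 10 monocyte and macrophage genes had a median of 0.02 and summed to 571 to 623 FPKM in KO and 466 to 534 FPKM in wildtype. Of them 2 were called higher and 1 lower with the 6 libraries, against 2.46% and 1.25% of all tested genes. The 5 eosinophil genes (median 0.28, and 0.12 without KO replicate 1) and the 7 tested mast cell and basophil genes (median -0.02) had 0 calls in either fit. The mast cell chymase Mcpt4 was listed at 0 in KO replicates 1 and 2 and in wildtype replicate 2.

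The 8 tested chondrocyte genes had a median log2 difference of 0.06, and their list summed to 1432, 623 and 632 FPKM in KO and 593, 817 and 751 FPKM in wildtype. KO replicate 1 was the highest of all, and without it the median turned to -0.65. The median was -0.53 for the 6 T and NK cell genes, -0.45 for the 5 osteoblast and osteocyte genes, -0.47 for the 4 endothelial genes and -0.06 for the 6 proliferation genes. No gene in these 5 lists was called in the 5-sample fit or with the 6 libraries. None of the listed markers found in the deposited table was at 0 in every library, and the mast cell gene Tpsab1 was not found in it.

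Prss57, Prtn3 and Elane share a gene cluster on chromosome 10, spanning 107 kb from the start of Prss57 to the end of Elane. Only 3.07 kb separate Prtn3 and Elane, and 83.5 kb separate Prss57 and Prtn3. The complement gene Cfd (adipsin), known from adipocytes, begins 2.64 kb after Elane. It lay at 8.01, 0.583 and 0.470 FPKM in KO and 84.6, 8.98 and 34.4 FPKM in wildtype, opposite to its neighbour (log2 difference -3.24; edgeR, adjusted p = 0.320). Med16 and R3hdm4, further on, had log2 differences of 0.38 and 0.46, Ptbp1 had 0.11, and Palm, 2.61 kb from Prss57, had 0.54. Arid3a, 38.8 kb after Elane, had 0.67 in 5 samples and 0.73 with the 6 libraries (edgeR, adjusted p = 0.175 and 0.0401). Fstl3 overlaps Prss57 and had -0.77, while Plppr3 overlaps Prtn3 on the opposite strand and had 0.73 (edgeR, adjusted p = 0.0401 with the 6 libraries). The paper describes the libraries as strand-specific, but the setting used for counting is not given in the sources used here, so overlapping pairs are uncertain.

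**Figure D5:**
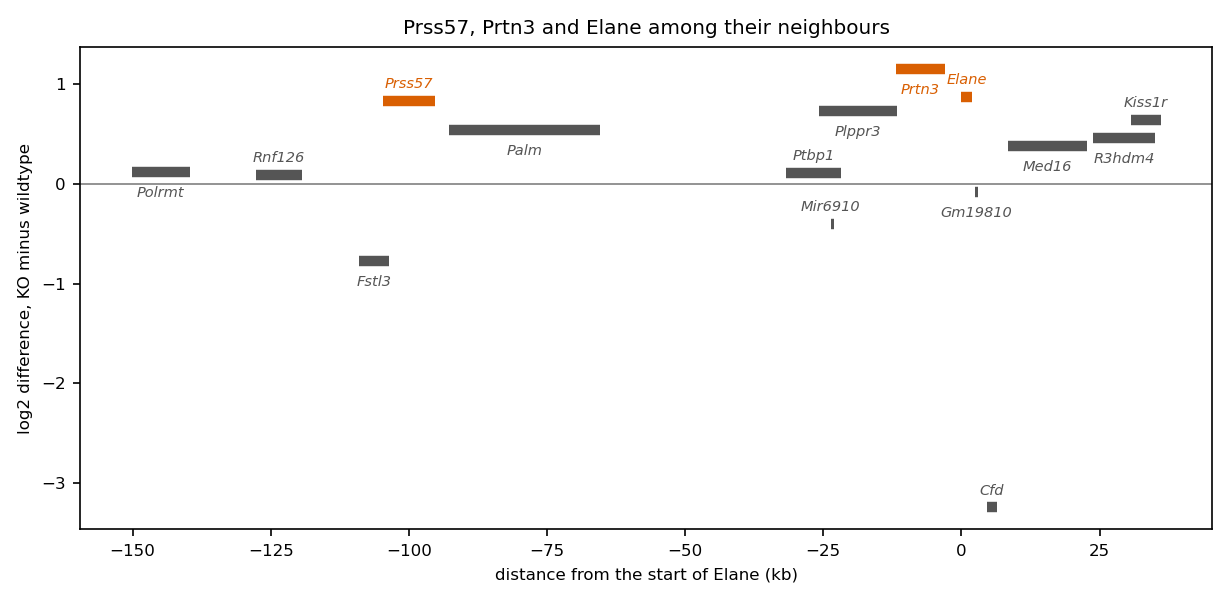
Tested genes around Prss57, Prtn3 and Elane (orange) by distance from the start of Elane (kb, horizontal axis) and log2 difference (KO minus wildtype, 5 samples, vertical axis), each drawn from its start to its end. The 3 proteases lie between 0.83 and 1.15, whereas Cfd, 2.64 kb after Elane, lies at -3.24. Arid3a, 38.8 kb after Elane, is not drawn.

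Elsewhere, the antisense gene Gm11505 overlaps Mpo and lay at 2.77, 6.77 and 5.59 FPKM in KO and 1.39, 1.56 and 1.84 FPKM in wildtype, far below Mpo and uncertain for the same reason. Tspoap1, 7.65 kb from Mpo, had a log2 difference of 0.62. Mcpt8, 14.6 kb from Ctsg in the chymase locus, had -0.16. Ms4a6d, 24.6 kb from Ms4a3, lay at 11.2, 24.5 and 26.4 FPKM in KO and 6.91, 8.16 and 9.32 FPKM in wildtype (log2 difference 1.17), and the mast cell receptor gene Ms4a2 beside it had -0.35. Vps26a, near Srgn, had 0.18. In all, 27 neighbours within 50 kb of a member were tested. Of these 16 were higher in KO, with a median of 0.11, and 0 were called in 5 samples. With the 6 libraries 4 were called higher, against 2.46% of all tested genes.

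Among 7606 other genes averaging 5 FPKM or more, the profiles were ranked by their distance to the mean of Mpo and the 4 proteases. The closest was Il1r2, the decoy receptor of interleukin-1, at a distance of 0.059 on the log2 scale over the 6 libraries. Its level was 22.1, 38.4 and 36.5 FPKM in KO and 13.5, 18.3 and 15.5 FPKM in wildtype. Then came Nfil3 (0.076), a transcription factor, and Mrgpra2b, Ifitm6, Mrgpra2a and Clec4e (0.078 to 0.083). Mmp8 and Clec5a (both 0.088), Card9 (0.090) and Alox5ap (0.102) completed the 10 closest. Reads of the near-identical copies Mrgpra2a and Mrgpra2b may be split between them. The 10 genes had log2 differences of 0.83 to 1.05, which the choice of like profiles fixed.

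For single members, Ass1 was closest to Mpo (0.031), Nfil3 to Elane (0.030) and to Prss57 (0.066), and Ifitm6 to Prtn3 (0.077). Wfdc17 was closest to Ctsg (0.094) and Chil3, a protein of the neutrophil series and of macrophages, to Ms4a3 (0.069). Stk26 was closest to Srgn (0.054). Ctsc had another kind of neighbour, Ppp1r3b (0.081), a regulator of glycogen synthesis that lay at 3.66, 7.76 and 7.80 FPKM in KO and 4.03, 3.18 and 4.24 FPKM in wildtype, so that its KO replicate 1 fell within the wildtype range.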

How the data were processed

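RNA-seq of 6 cartilage libraries (3 KO, 3 wildtype) was used as a single table. The authors deposited FPKM values, scaled within each library, and estimated counts given as whole numbers, in which low values piled up at 4 (6596 values against 4170 at 3 and 2332 at 5). The submitters' processing notes name cutadapt 1.9, HISAT2 2.0.4, UMI-tools, StringTie 1.3.4d, DESeq2 and edgeR, without their order. The genome build is not given in the sources used here, and positions matched GENCODE M21 on GRCm38 for 30117 of 34607 shared genes. 0 columns of samples were left unused. The authors' own comparisons were not used. Because totals ranged from 52268311 to 63331135, a floor of 3 counts corresponds to 0.0474 to 0.0574 CPM, and it covers counting error only.

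Genes averaging 0.5 FPKM or more were tested (15373, the 8 members included) by edgeR 4.0.16 (R 4.3.3; TMM, quasi-likelihood, Benjamini-Hochberg over all), with KO replicates 2 and 3 averaged and rounded. A gene was called at an adjusted p under 0.05. Each standard error was the log2 difference divided by the root of its F statistic. Likeness used log2 CPM (prior count 2), centred for each gene. Alternatives were the 6 libraries as labelled, a replicate block, no filter, at least 5 FPKM, median-of-ratios scaling, DESeq2 1.42.0, limma 3.58.1 on log2(FPKM + 1) and log2(FPKM + 0.1), and libraries left out. Scripts were tested on simulated data. Same-numbered libraries did not deviate together (correlations -0.15, -0.11 and -0.06), and the numbers were not taken to pair them.

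Members, lists, motifs and the merging were chosen with earlier results of these data known. Named genes were the members, the 3 highest of each list and up to 4 called with the 6 libraries, tested neighbours and closest profiles, in part summarised, and a few others, chosen after their values were seen. The knocked-out gene is not reported here.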

Additional observations from a re-analysis of the deposited data

How the results depend on the processing

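The median log2 difference of the 8 members lay between 0.61 and 1.03 under every alternative tried, and its direction did not change. The number of members called was 0 in the 5-sample fit. It was 2 with the 6 libraries as labelled, 0 with those libraries and a replicate block (median log2 difference 0.92), 5 with DESeq2, and 0 without the filter, with a mean of at least 5 FPKM, with median-of-ratios scaling and with limma at either pseudocount. With libraries left out it ranged from 0 to 2, the 2 being Mpo and Ctsc without KO replicate 1. Over all genes the count was 0 in the 5-sample edgeR fit (2106 at an unadjusted p under 0.05), 570 with the 6 libraries, 880 with DESeq2, 21 without the filter, 352 without KO replicate 1 and 9 without KO replicates 2 and 3. The count over all genes was also 0 with the replicate block, with a mean of at least 5 FPKM and with median-of-ratios scaling. With limma it was 0 at either pseudocount. Ctsc was the member that changed sign, from 1.01 without KO replicate 1 to -0.09 without KO replicates 2 and 3. The cause was not tested. The 5-sample fits have 2 KO samples, and leaving out either of them leaves 1, assumed to vary like the wildtype. DESeq2 and edgeR differed in calls on the same 5 samples, and why was not tested.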
